A study of Mus musculus with 6 samples.

Results

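The mRNAs of 7 genes that supply and remodel the actin cytoskeleton were followed in RNA that came down with LARP1 from mouse dorsal root ganglia (DRG), which hold the cell bodies of sensory neurons. The genes were taken by Ensembl identifier, as members of the actin system and not by a threshold on their values: the cytoplasmic actins Actb (ENSMUSG00000029580) and Actg1 (ENSMUSG00000062825), cofilin Cfl1 (ENSMUSG00000056201), the profilins Pfn1 (ENSMUSG00000018293) and Pfn2 (ENSMUSG00000027805), and the beta-thymosins Tmsb4x (ENSMUSG00000049775) and Tmsb10 (ENSMUSG00000079523). All 7 had a row among the 16976 identifiers of the count table. The ganglia came from wild-type mice that either had a sciatic nerve injury (injured) or had none (uninjured). The labels do not give the time after injury, the age or sex of the animals, or how many animals were pooled. LARP1 was recovered with an antibody, and the RNA was sequenced as amplified nanopore cDNA in 3 libraries per group.

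Actin filaments are part of the growth cone that an axon extends when it grows or regrows, and they turn over by the addition and loss of actin monomers. Cofilin severs and disassembles older filaments, profilin hands monomers to the growing end, and beta-thymosins bind monomers and keep them in reserve. LARP1 is an RNA-binding protein best known for binding the cap and the first bases of mRNAs that begin with a terminal oligopyrimidine tract.

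Because LARP1 reads the first bases of an mRNA, the annotated transcript starts of the members are shown. They come from RefSeq's promoter table for GRCm38.p6, matched by symbol, while the counts were made on GRCm39. The table gave 8 starts for 6 members. No start was taken for Actb. Each line has 15 bases before the start in lower case and the first 15 bases of the transcript in capitals, 5′ to 3′ on the gene's strand.
Cfl1, chr19:5490440-5490469, plus strand: gcccgcgcggcaagcGCCGGAAGGCCGCCC
Tmsb4x, chrX:167209204-167209233, minus strand: cggactacgagtgacATCACCTCATTTGCA
Tmsb10, chr6:72958218-72958247, minus strand: gcgacccggcggtttGGAATCTTCTGGGGC
Tmsb10, chr6:72958469-72958498, minus strand: ccacgccctccgcgcGGGCTGGCCACGCCC
Tmsb10, chr6:72958734-72958763, minus strand: cacacccacaaccctACACCACACATACAT
Pfn1, chr11:70654636-70654665, minus strand: aataaaaatctagagGGGGGGGGGAGGAGC
Pfn2, chr3:57847743-57847772, minus strand: cgcggagagccgaggGAGCTGCGGCGGTGT
Actg1, chr11:120348481-120348510, minus strand: ggggaggccgcggtcGGTCTCACACTCCGC

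None of these 8 starts had C as the first transcript base followed by at least 4 bases of C or T, read on the transcript's strand only. That pattern was found at 823 of the 32851 starts in the table (2.51%). It was searched at the annotated base alone, and transcripts in the ganglion can start elsewhere, so these letters do not show whether LARP1 binds the mRNAs.

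The libraries of a group are given one by one but were counted as 1 sample per group. Their totals were 116186 to 116608 counts without injury and 211337 to 211879 with injury. For genes counted 15 times or more in a group, variance between the libraries amounted to 1.16 times counting noise without injury and 1.12 times with injury. For the 6 members counted that often it amounted to 1.44 and 1.35 times. The labels do not say that the libraries came from separate animals, so the injury comparison has no replicate check, and the groups cannot be told apart from a batch in which each was prepared. Levels are CPM (counts scaled to a common total) of a library or of a summed group, and 95% intervals are exact and cover counting error only. In these bulk ganglia fewer cells of a type and less RNA per cell cannot be told apart, and no input RNA was used here, so more mRNA in the tissue and more of it on LARP1 cannot be told apart either. No control precipitate was used here, so mRNA held by LARP1 and mRNA carried over without it cannot be told apart. The 5 marker lists for neurons, glia, immune and connective-tissue cells, and the list of other actin regulators, were not analysed here, because 0 of the identifiers could be paired with a symbol in the gene table used.

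Injured and uninjured precipitates were set side by side to ask which of these mRNAs differed after nerve injury. Cfl1 stood highest, at 5.24 times its uninjured level, and Tmsb4x followed at 2.04 times. Actb was 1.21 times its uninjured level. Pfn2 and Tmsb10 had intervals of the ratio that included 1, Pfn1 had a ratio of 0.721 and did not pass the test across genes, and Actg1 had next to no counts in either group. Of the 6 members that passed the filter on low counts, 3 (Actb, Cfl1 and Tmsb4x) passed edgeR's quasi-likelihood test (Benjamini-Hochberg adjusted, threshold 0.05), all higher after injury, beside 24.9% of the 3158 genes tested that were called higher and 47.0% called in either direction. It sets the reads of 2 samples against each other and does not test the conditions. A ratio of at least 1.5-fold was reached by 2 of the 6, Cfl1 and Tmsb4x, both higher, beside 30.0% of all tested genes in that direction and 50.9% in either. Counted in either direction, the members' shares lie near or below this background, so the count of calls is not a result about the group of genes. The median log2 ratio of CPM was 0.27 over the 6 members and 0.08 over all tested genes.

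**Figure D1:**
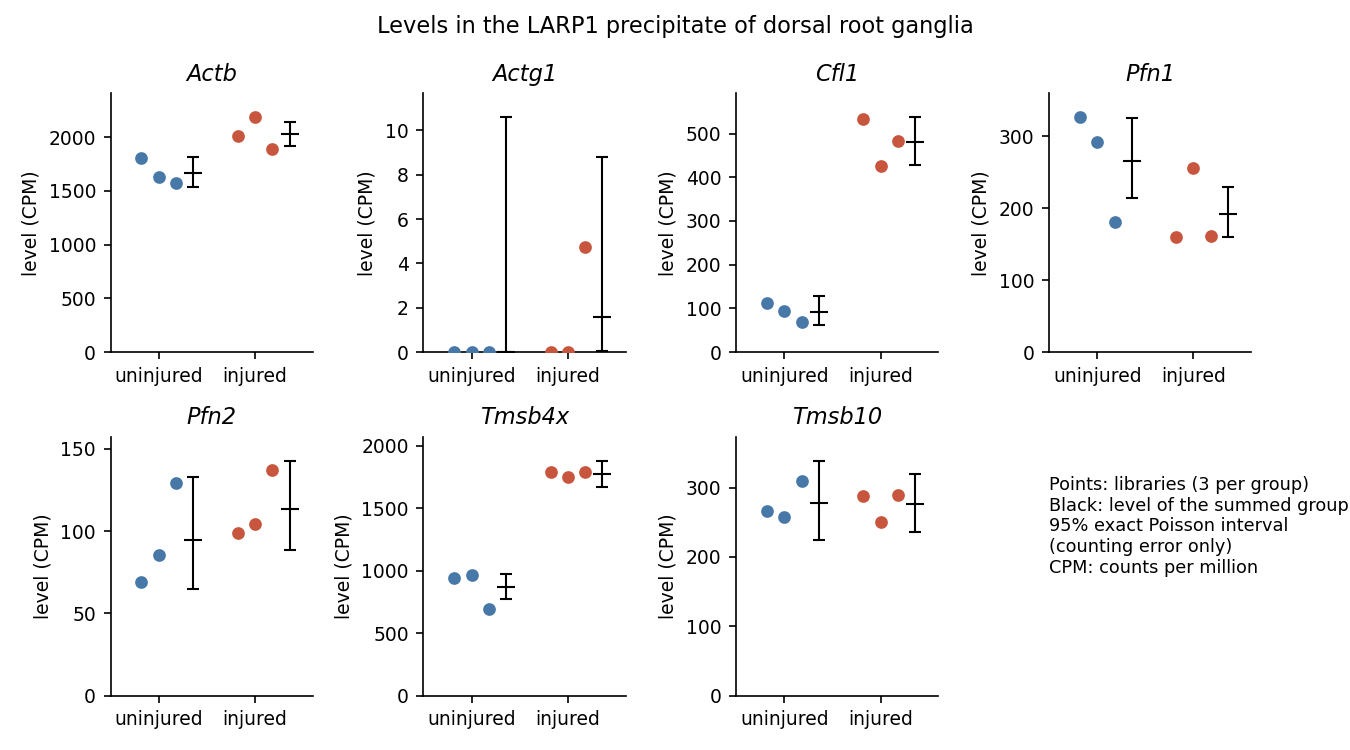
Level of each gene in CPM (vertical axes, starting at 0 and scaled for each gene) in the uninjured (blue) and injured (red) libraries, 3 points per group, with the level of the summed group and its 95% exact Poisson interval in black. The injured points of Cfl1, Tmsb4x and Actb all lie above the uninjured points, those of Pfn1, Pfn2 and Tmsb10 overlap them, and Actg1 has a single injured count.

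Cfl1, the main non-muscle cofilin, showed the largest ratio among the members. The uninjured libraries held 13, 11 and 8 counts of Cfl1, or 111.8, 94.33 and 68.86 CPM. The injured libraries held 113, 90 and 102 counts, or 533.3, 425.9 and 482.5 CPM. Every injured library was several-fold above every uninjured one, and the gap between the groups was far wider than the scatter within them. Summed by group, the level was 91.7 CPM (62.7 to 129) without injury and 480.6 CPM (428.2 to 537.7) with injury, a ratio of 5.24 (3.64 to 7.80). The interval of the ratio is wide because only 32 uninjured counts stand behind it. In the distribution of tested genes 127 had a higher ratio than Cfl1 and 96.0% had a lower one. The libraries of the groups did not overlap for 3 of the 6 tested members, Cfl1 among them, with the injured libraries above in each case; this was so for 32.4% of all tested genes in that direction and 55.5% in either. With each group summed and a coefficient of variation assumed in place of the measured spread (chosen after the data were seen), the log2 fold change of Cfl1 was 2.31 as before, and its call was lost at an assumed 0.4 but not at 0.2; such a call depends on the number assumed and is no support for the difference.

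Of the beta-thymosins, which sequester actin monomers, Tmsb4x was higher after injury and Tmsb10 was not distinguishable between the groups. Uninjured libraries held 109, 113 and 81 counts of Tmsb4x, equal to 937.8, 969.1 and 697.2 CPM. Injured libraries held 379, 369 and 378, equal to 1789, 1746 and 1788 CPM. The injured libraries lay close together and well above all uninjured ones, of which the third was the lowest. Summed, Tmsb4x reached 868 CPM (773 to 972) in the uninjured and 1774 CPM (1672 to 1881) in the injured group. The ratio was 2.04 (1.80 to 2.33), and 1.86 without the third uninjured library. Its call was lost under either assumed coefficient of variation, 0.2 or 0.4, at a log2 fold change of 0.95 in both against 0.96 with the measured spread.

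Tmsb10, the close relative of Tmsb4x, was counted 31, 30 and 36 times in the uninjured libraries (266.7, 257.3 and 309.8 CPM). It was counted 61, 53 and 61 times in the injured libraries (287.9, 250.8 and 288.6 CPM). The groups overlapped, and the lowest and the highest library belonged to different groups. Their summed levels were 278 CPM (225 to 339) and 275.8 CPM (236.4 to 319.8), with a ratio of 0.992 (0.770 to 1.29). This depth leaves room for a ratio anywhere in that interval, and the sign of the small difference changed with scaling: edgeR's log2 fold change was -0.08 with TMM factors and 0.03 with library totals only. Within the pair, Tmsb4x took 75.8% of the thymosin counts without injury (71.2% to 79.9%) and 86.5% with injury (84.6% to 88.4%). By library the share was 77.9%, 79.0% and 69.2% without and 86.1%, 87.4% and 86.1% with injury, with no overlap. How often shares of other gene pairs separate in this way was not tested. The ratio for Tmsb4x was 2.06 times that for Tmsb10 (95% exact conditional interval 1.54 to 2.74), a comparison in which library totals and transcript length cancel.

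Of the cytoplasmic actins, Actb carried nearly all counts. Actb, which encodes beta-actin, was counted 210, 190 and 183 times in the uninjured libraries (1807, 1629 and 1575 CPM). It was counted 425, 462 and 400 times in the injured libraries (2006, 2186 and 1892 CPM). The groups did not overlap, but the highest uninjured and the lowest injured library were close. Summed, Actb stood at 1670 CPM (1540 to 1810) in the uninjured and 2028 CPM (1919 to 2142) in the injured group, and the ratio was 1.21 (1.10 to 1.34). On the log2 scale the ratio was 0.28, which is 0.20 above the median of all tested genes. The call was lost without the second uninjured library (log2 fold change 0.18), without the third (0.15) and with a filter of 10 counts in 3 libraries (0.14), against 0.21 with all libraries and the main filter. It was also lost under both assumed coefficients of variation.

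Actg1, which encodes gamma-actin, the other actin of non-muscle cells, was close to absent from the table. It had 0 counts in all uninjured libraries and 0, 0 and 1 in the injured ones. The floor of 3 counts in the 349027 uninjured counts corresponds to 8.60 CPM, and the exact interval of the 0 uninjured counts reached 10.6 CPM. The single injured count corresponds to 1.58 CPM (0.0399 to 8.78), below the injured floor of 4.73 CPM, so no ratio was formed and the gene was not tested. Of the counts assigned to the actin pair, Actg1 had 0 of 583 without injury, where the floor of 3 counts is a share of 0.515%. It had 1 of 1288 with injury, a share of 0.0776%. The exact interval of the share of Actb was 99.4% to 100% without and 99.6% to 100% with injury. Actb and Actg1 are close paralogues with many processed pseudogenes, so the division of estimated counts among them and similar sequences is uncertain. Whether reads of Actg1 were given to another identifier was not tested.

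Neither profilin passed the test across genes, and both had wide intervals. Pfn1, the widely expressed profilin, was counted 38, 34 and 21 times in the uninjured libraries (326.9, 291.6 and 180.7 CPM). It was counted 34, 54 and 34 times in the injured libraries (160.5, 255.5 and 160.8 CPM). The groups overlapped, because the third uninjured library was low and the second injured library was high. The summed level was 266 CPM (215 to 326) without injury and 192.2 CPM (159.6 to 229.5) with injury, and the ratio of injured to uninjured was 0.721 (0.546 to 0.955). Its counting interval lay below 1, but edgeR did not call it with all libraries (log2 fold change -0.54). Without the third uninjured library the log2 fold change was -0.77, and without the second injured library it was -0.75, and it was called in both cases. It was also called with a filter of 10 counts in 3 libraries (-0.61) and with the replicate number as a term (-0.54).

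Pfn2, the profilin enriched in the nervous system, was among the least counted members. Uninjured libraries held 8, 10 and 15 counts of it, equal to 68.83, 85.76 and 129.1 CPM. Injured libraries held 21, 22 and 29, equal to 99.11, 104.1 and 137.2 CPM. The third library was the highest in each group and the ranges overlapped. Summed, Pfn2 stood at 94.5 CPM (65.1 to 133) in the uninjured and 113.5 CPM (88.77 to 142.9) in the injured group, and the ratio was 1.20 (0.784 to 1.87). Pfn1 took 73.8% of the profilin counts without injury (65.2% to 81.2%) and 62.9% with injury (55.7% to 69.7%). By library its share ran from 58.3% to 82.6% without and from 54.0% to 71.1% with injury, so the groups overlapped. The ratio for Pfn2 was 1.66 times that for Pfn1, and the interval of 0.991 to 2.82 included 1.

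**Figure D2:**
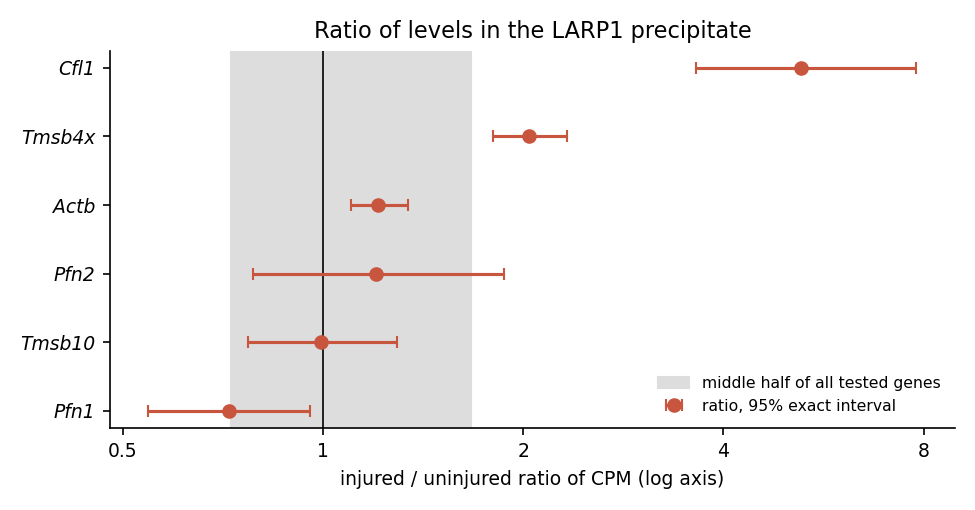
Ratio of injured to uninjured CPM of the summed groups for the 6 members that passed the filter (horizontal log axis), with 95% exact intervals that cover counting error only; the grey band is the interquartile range of the ratio over all 3158 tested genes. Cfl1 at 5.24 and Tmsb4x at 2.04 lie to the right of the band, and the other 4 lie within it or at its lower edge.

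In order of the ratio the members ran Cfl1, Tmsb4x, Actb, Pfn2, Tmsb10 and Pfn1. Of the 5 neighbouring pairs in this order, 2 differed beyond counting error. The ratio for Cfl1 was 2.56 times that for Tmsb4x (1.73 to 3.90), and the ratio for Tmsb4x was 1.68 times that for Actb (1.43 to 1.98). Actb and Pfn2 differed by a factor of 1.01 (0.641 to 1.57), Pfn2 and Tmsb10 by 1.21 (0.730 to 2.03), and Tmsb10 and Pfn1 by 1.37 (0.937 to 2.02), with each interval including 1. Among all 15 pairs the interval excluded 1 in 10: Cfl1 against each of the other 5, Tmsb4x against each of the 4 below it, and Actb against Pfn1. These intervals are not adjusted for the number of pairs, and the order was taken from the same ratios. How often pairs of other tested genes differ in this way was not tested. Of all tested genes, 50.9% were past 1.5-fold in either direction, so the count of pairs is not a result about the group of genes. By these intervals the severing factor and 1 monomer-sequestering thymosin stood above beta-actin in ratio. Pfn1 stood below beta-actin (Actb against Pfn1, 1.68, interval 1.25 to 2.26). Against counting noise, the injured libraries spread most for Pfn1 among the 6 members (chi-square 6.6 with 2 degrees of freedom). The interval covers counting error only and may be too narrow for this gene.

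**Figure D3:**
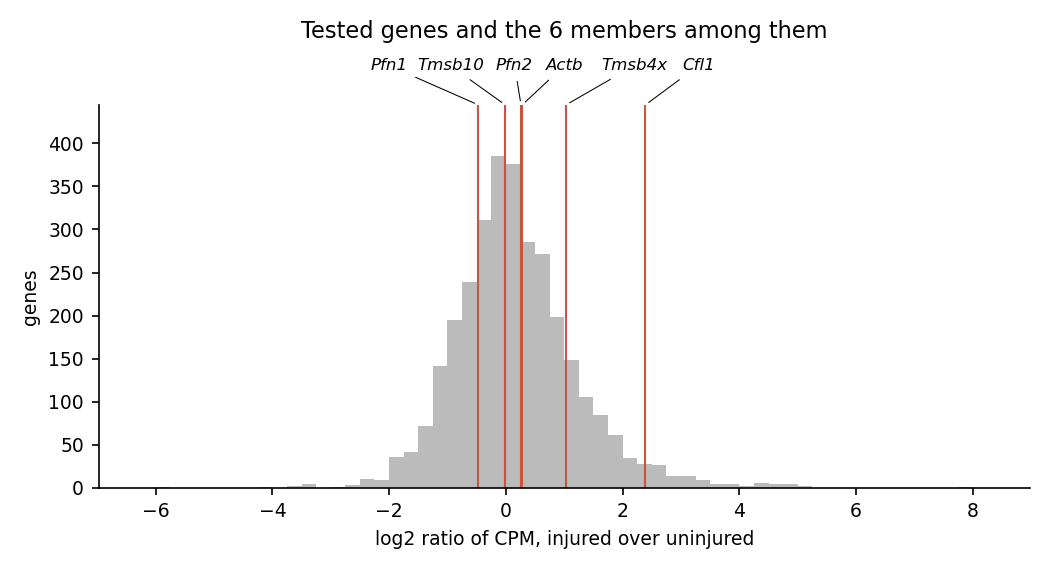
Number of tested genes (vertical axis) by log2 ratio of injured to uninjured CPM in bins of equal width, leaving out 22 genes with 0 uninjured counts; red lines mark the 6 tested members. Cfl1, at 2.39, lies in the upper tail; 127 tested genes had a higher ratio, the 22 left out among them, and Pfn1, at -0.47, lies at the lower quartile of -0.46.

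The summed counts of the 7 genes made up 0.327% of the uninjured counts (1141 of 349027, 95% Wilson interval 0.309% to 0.346%) and 0.487% of the injured counts (3088 of 634615, 0.470% to 0.504%). By library the share was 0.352%, 0.333% and 0.296% without injury and 0.488%, 0.497% and 0.475% with injury. The groups did not overlap, and the third uninjured library was the lowest. Taken singly, 55.5% of all tested genes did not overlap in either direction. How often sums of other genes separate was not tested. Without Cfl1 and Tmsb4x, which were singled out after their values were seen, the share was 0.231% (0.216% to 0.247%) without and 0.261% (0.249% to 0.274%) with injury. Within the summed counts, which are not corrected for transcript length, the share of Cfl1 was 2.80% (1.99% to 3.93%) without and 9.88% (8.87% to 11.0%) with injury. The share of Tmsb4x was 26.6% (24.1% to 29.2%) and 36.5% (34.8% to 38.2%). In the opposite direction, Actb went from 51.1% (48.2% to 54.0%) to 41.7% (39.9% to 43.4%) of the summed counts, although its own level was higher after injury. Pfn1 went from 8.15% (6.70% to 9.88%) to 3.95% (3.32% to 4.70%). Tmsb10 went from 8.5% (7.02% to 10.3%) to 5.67% (4.91% to 6.54%), at a CPM ratio of 0.992. Pfn2 went from 2.89% (2.07% to 4.03%) to 2.33% (1.86% to 2.93%). Shares of a sum fall when other members rise, so a lower share alone does not show a lower level.

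**Figure D4:**
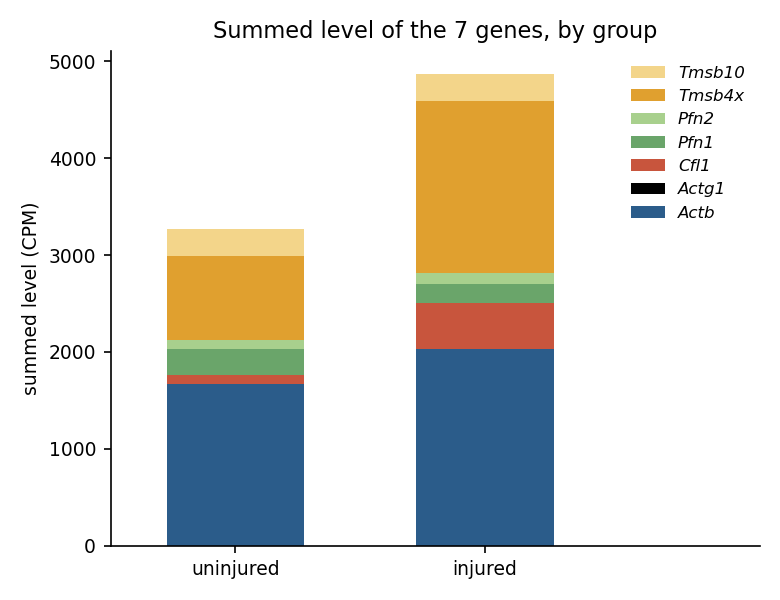
Summed level of the 7 genes in CPM (vertical axis from 0) in each group, stacked by gene and not corrected for transcript length. The injured bar is taller, at 0.487% against 0.327% of all counts, and most of the added height is Tmsb4x and Cfl1; Actg1 is too low to be seen.

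The third uninjured library had the lowest CPM of its group for Actb, Cfl1, Pfn1 and Tmsb4x and the highest for Pfn2 and Tmsb10. Without it the ratio was 4.66 for Cfl1, 1.86 for Tmsb4x, 1.18 for Actb, 0.622 for Pfn1, 1.47 for Pfn2 and 1.05 for Tmsb10. The direction was kept for all 6 except Tmsb10, whose ratio with all libraries was 0.992.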

How the data were processed

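The deposited table holds the authors' estimated counts, without normalization, for each Ensembl gene identifier. The submitters' processing notes name Salmon, minimap2 and the build GRCm39 (mm39). Their versions, the annotation release and any filter were not given in the sources used here. Reads are divided by Salmon among similar sequences by estimation, which makes counts of paralogues and pseudogene copies uncertain. The values were whole numbers, so rounding changed 0 of them, and 0 other per-sample columns were present. Amplified cDNA was counted without molecular identifiers, so intervals cover counting error only.

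Columns were matched to samples by library name and grouped by title. Levels are CPM of column totals; group levels use summed counts with exact Poisson intervals, ratios have exact Clopper-Pearson intervals, and a ratio between 2 genes' ratios has an exact conditional interval (scipy 1.17.1). Since the libraries of a group agreed nearly within counting noise, they were counted as 1 sample, and p-values of single genes are not printed. The test across genes was the quasi-likelihood test of edgeR 4.0.16 in R 4.3.3 with TMM, filterByExpr and a Benjamini-Hochberg threshold of 0.05. The same fit was run on simulated counts of independent libraries, with its outcome not reported here. That run cannot show whether the libraries of a group are replicates. Alternatives were limma-voom (limma 3.58.1), DESeq2 1.42.0, other scalings and filters, the shared replicate number as a term, leaving out each library, and, added later, assumed coefficients of variation of 0.2 and 0.4. All members were named. The members and gene lists were chosen with earlier results of these data known. The marker and regulator lists were not analysed, since no identifier was paired with a symbol.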

Additional observations from a re-analysis of the deposited data

How the results depend on the processing

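The counts of genes called, 1485 in all, 786 higher and 699 lower after injury, stayed within 1.5 times under DESeq2, limma-voom, other scalings and filters, the replicate term and each library left out. The range without each library was 1220 to 1576 in all, 638 to 836 higher and 582 to 756 lower. Similar totals did not mean the same genes. DESeq2 called 526 of the 786 higher and 401 of the 699 lower genes. The fit with no filter called 606 and 389 of them, and limma-voom 661 and 690. In each of these fits 0 genes were called in the opposite direction. With summed groups and an assumed coefficient of variation of 0.2, a setting chosen after seeing the data, 481 genes were called, 305 higher and 176 lower, and with 0.4 there were 47, 42 higher and 5 lower; this changes both the summing and the spread, and their parts were not tested separately. Past 2-fold in place of 1.5-fold, 897 in place of 1609 genes were counted. Under library totals without TMM factors the median log2 fold change of all genes moved from 0.01 to 0.12. Of 15 alternatives each, the call was kept in 14 for Cfl1, 13 for Tmsb4x and 10 for Actb, with log2 fold changes of 2.13 to 2.47, 0.81 to 1.07 and 0.14 to 0.32. Pfn1 was called in 4 of 15, and Pfn2 and Tmsb10 in 0 of 15. For Tmsb10 the log2 fold change of -0.08 became 0.03 with library totals only, 0.03 with no filter and 0.03 without the second injured library; without each library it ran from -0.14 to 0.03. All ratios of CPM stayed within their counting intervals under each scaling and without each library. The share of Actb among actin counts with injury, 99.9%, ranged from 99.9% to 100% without each library. The replicate block gave 1427 calls, 750 higher and 677 lower, with a log2 fold change of -0.54 for Pfn1, which it called. The numbers were not taken as pairing the libraries: over 2976 genes, libraries with the same number had deviations that correlated at 0.032, 0.003 and -0.044, and 1 of 3 correlated best with its own number. Actg1, with 1 count in all, had no ratio, and the reason for its low count was not tested. Cfl1 and Pfn2 rest on 32 and 33 uninjured counts.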
